A study of Mus musculus with 22 samples.

Results

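The genes described are 29 genes of cholesterol and fatty acid synthesis, listed by gene name among the 20938 genes of the deposited table, with no measured value in the rule. They were followed in lung RNA of BALB/c mice from 22 libraries in 6 groups. Every animal, controls included, received a sensitizing injection into the peritoneum at an age of 49 days, a booster on day 63 of life and aerosol challenges starting on day 70. The sources used here do not name the sensitizing agent. The aerosol held phosphate-buffered saline (PBS), methacholine (MCh), a muscarinic agonist that constricts airways, or ovalbumin (OVA), the egg-white allergen of many mouse asthma models. The short protocol gave aerosol on 3 consecutive days and the long protocol 3 times a week for 4 weeks. Each protocol had 3 PBS, 4 MCh and 4 OVA libraries, which the labels call biological replicates. The labels conflict in places: sample titles give 4 days for short MCh and call PBS and MCh mice normal rather than sensitized, and the series design names tracheal tissue. Markers of lung alveoli were abundant, with a mean of the surfactant gene Sftpc between 4690 FPKM in long PBS and 7870 FPKM in short MCh (FPKM, fragments scaled to transcript length and library depth).

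Cells build cholesterol from acetyl-CoA through mevalonate, farnesyl diphosphate, squalene and lanosterol, and they build fatty acids from the same precursor through malonyl-CoA. Both branches are controlled by sterol regulatory element binding proteins (SREBPs), which are held in the endoplasmic reticulum by SCAP and INSIG proteins while sterol is plentiful and otherwise move to the nucleus to act on promoters. In the lung, alveolar type 2 cells make the fatty acids and cholesterol of surfactant, and macrophages take surfactant lipid up and export the sterol.

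SREBPs bind sterol regulatory elements, often beside CCAAT boxes bound by the factor NF-Y. Windows of 250 bases before the listed start sites of RefSeq genes (build GRCm38.p6) were searched on both strands for TCACNCCA, the core of a sterol regulatory element with any base at N, for the longer form TCACCCCAC, which contains it, for CCAAT and for the E-box CACGTG. Of the 29 genes 22 had an entry, with 29 windows because some genes have several starts. TCACNCCA occurred in Hmgcs1, Msmo1 and Srebf2, in 3 of these 29 windows and in 3.67% of all 32851 windows. The longer TCACCCCAC was found in Hmgcs1 (0.496% of all windows). A CCAAT occurred in 19 of the 29 windows, against 33.8% of all windows, and CACGTG in Hsd17b7, Sc5d, Dhcr7 and Insig1 (6.02% of all windows). A match describes letters in a window and is not evidence of binding. The windows below are shown because these genes carry the comparisons that follow: Mvd, Idi1 and Nsdhl were higher after short OVA, Srebf2 and Acly were lower, and Hmgcs1, with the longer element, did not pass. Capitals mark TCACNCCA and CCAAT on either strand (ATTGG is CCAAT on the other strand), and Acly has neither.

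Hmgcs1, chr13:119690101-119690350, plus strand: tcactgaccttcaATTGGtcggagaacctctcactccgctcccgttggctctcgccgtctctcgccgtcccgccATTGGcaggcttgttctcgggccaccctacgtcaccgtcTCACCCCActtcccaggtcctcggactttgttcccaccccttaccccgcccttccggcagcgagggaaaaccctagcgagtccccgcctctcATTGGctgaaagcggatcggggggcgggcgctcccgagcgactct
Mvd, chr8:122443423-122443672, minus strand: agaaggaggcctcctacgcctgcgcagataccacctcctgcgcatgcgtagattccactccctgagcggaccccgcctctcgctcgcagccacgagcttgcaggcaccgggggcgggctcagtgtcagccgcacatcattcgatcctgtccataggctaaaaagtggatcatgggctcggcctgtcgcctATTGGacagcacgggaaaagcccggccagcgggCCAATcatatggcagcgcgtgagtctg
Idi1, chr13:8885356-8885605, plus strand: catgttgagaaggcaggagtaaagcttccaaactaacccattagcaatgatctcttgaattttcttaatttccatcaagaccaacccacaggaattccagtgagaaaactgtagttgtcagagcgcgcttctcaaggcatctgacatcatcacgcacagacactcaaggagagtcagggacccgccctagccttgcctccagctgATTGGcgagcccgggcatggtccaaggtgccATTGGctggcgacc
Nsdhl, chrX:72918271-72918520, plus strand: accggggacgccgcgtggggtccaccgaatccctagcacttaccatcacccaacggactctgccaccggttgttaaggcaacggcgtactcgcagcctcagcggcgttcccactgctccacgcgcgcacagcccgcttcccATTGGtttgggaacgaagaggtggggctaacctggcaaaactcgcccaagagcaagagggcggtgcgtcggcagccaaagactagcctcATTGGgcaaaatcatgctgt
Srebf2, chr15:82147019-82147268, plus strand: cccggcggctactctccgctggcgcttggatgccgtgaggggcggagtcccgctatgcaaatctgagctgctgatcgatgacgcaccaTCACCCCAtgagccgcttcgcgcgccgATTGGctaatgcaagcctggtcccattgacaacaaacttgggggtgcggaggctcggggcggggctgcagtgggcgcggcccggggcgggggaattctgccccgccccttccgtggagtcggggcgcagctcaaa
Acly, chr11:100528001-100528250, minus strand: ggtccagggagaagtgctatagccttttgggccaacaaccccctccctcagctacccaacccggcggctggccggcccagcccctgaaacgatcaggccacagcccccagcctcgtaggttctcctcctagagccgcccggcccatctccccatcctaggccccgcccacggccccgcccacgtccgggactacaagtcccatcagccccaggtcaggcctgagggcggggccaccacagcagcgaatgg

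Levels can be ranked between genes only in the deposited transcript table. For 5948 genes with 1 transcript, the ratio of the gene-table value to the transcript-table value was the same in all libraries (within 1%) but ran from 0.272 to 3.844 between genes (5th to 95th percentile), and among the 29 genes it reached 15.214 for Lss. Per transcript length, the desaturase genes Scd1 and Scd2 and the elongase gene Elovl1 stood highest in short PBS lungs: Scd1 at 120 ± 49.7 FPKM, Scd2 at 118 ± 8.76 and Elovl1 at 112 ± 4.47 (SD, n = 3), which did not differ beyond their spread. Acly, the source of cytosolic acetyl-CoA, followed at 58.3 ± 5.94 FPKM, then Fads1 at 38.3 ± 2.83, Fdps at 34.8 ± 1.92 and Fasn at 29.5 ± 6.03. The lowest were Dhcr7 at 4.44 ± 0.678 FPKM, Elovl6 at 2.13 ± 0.753 and Hsd17b7 at 1.92 ± 0.292, the last 2 within their spread of each other. All later FPKM values are from the gene table, and those of single genes are compared only within a gene. Sums over cell markers add genes on unlike scales. They are compared only between libraries and follow the markers with the largest values.

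After the short protocol, as fitted, OVA lungs held more transcript of late mevalonate enzymes and less of SREBP and fatty acid synthase genes than PBS lungs. Of the lower genes, only Srebf1 kept that result when a trend with transcript length was removed, as described below. Fdps rose from 54.8 ± 2.63 to 93.1 ± 3.06 FPKM and the malic enzyme gene Me1 from 16.1 ± 2.64 to 35.9 ± 4.15 FPKM (SD, n = 3 and 4), while Fasn fell from 102 ± 21 to 59.9 ± 3.3 FPKM and Srebf1 from 17 ± 1.32 to 11 ± 1.34 FPKM. In limma with Benjamini-Hochberg adjustment over 15682 genes, 5 of the 29 genes passed as higher (12.4% of all tested genes did), 5 as lower (11.7%) and 19 did not pass. Passing means an adjusted p under 0.05, and folds are differences in log2(FPKM + 0.5) with their SE, which understate the change of genes near 0. Either way 24.2% of all genes passed, so the count itself says little about these 29. Their median fold was 0.12 and that of all genes -0.06. In whole lung, more cells of a type and more RNA per cell cannot be told apart.

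**Figure D1:**
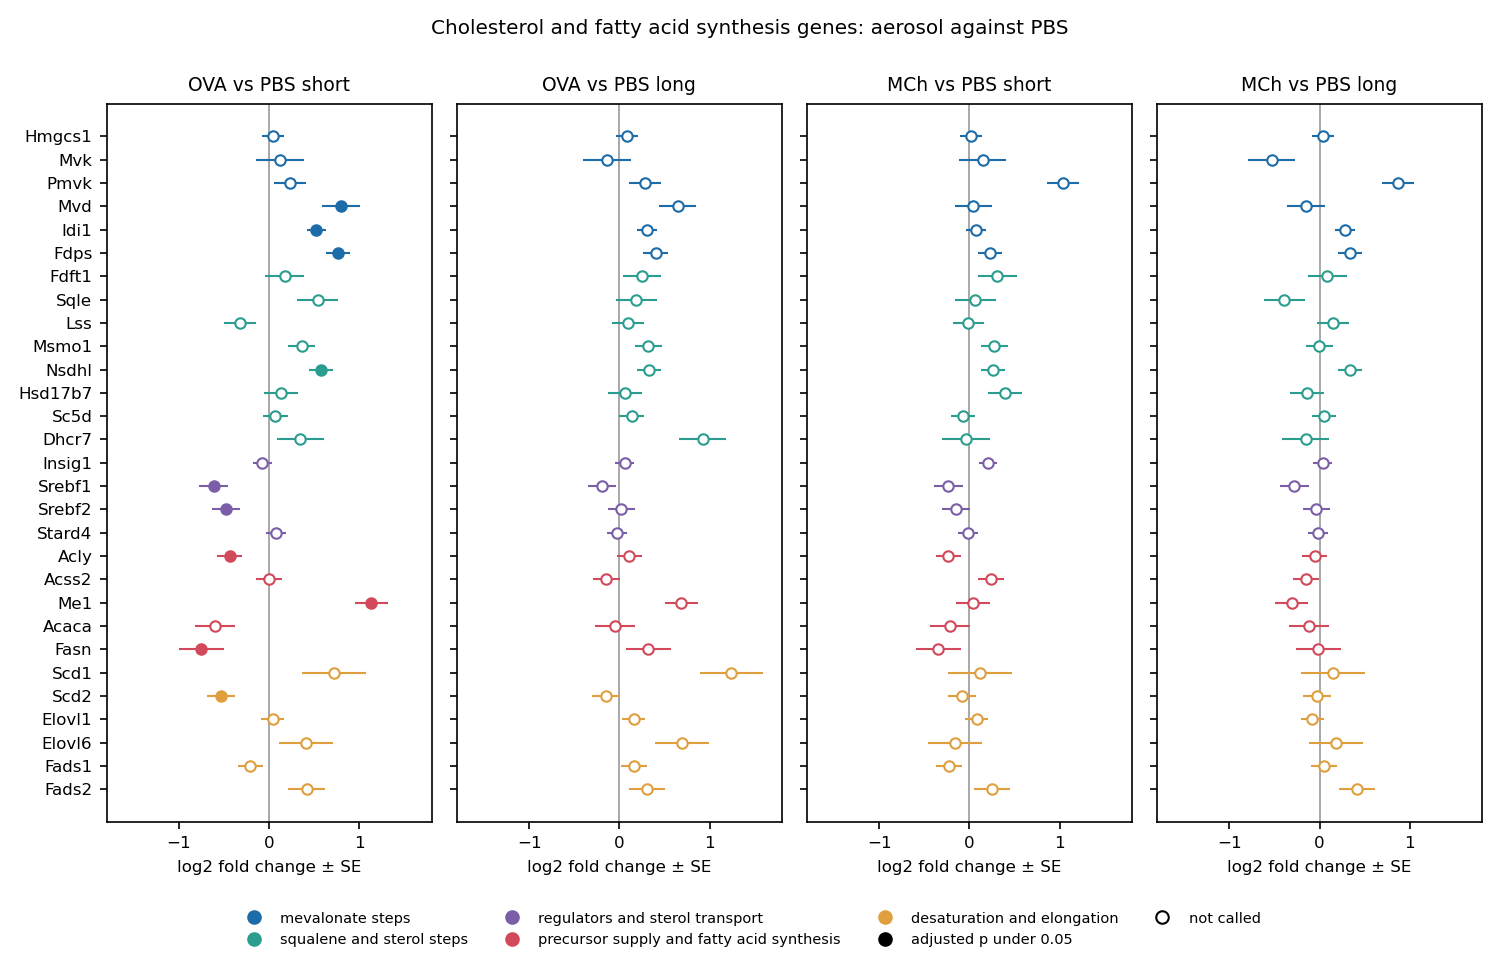
Log2 fold change ± SE of each of the 29 genes in 4 comparisons with PBS (x axis, difference in log2(FPKM + 0.5)), with genes coloured by role and filled where the adjusted p was under 0.05. In OVA vs PBS short 5 points are filled to the right and 5 to the left, and no point is filled in the other panels.

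The mevalonate steps run from Hmgcs1 to Fdps, and the late ones rose. Mvd (chromosome 8, 122433596 to 122443422 on GRCm38.p6), which decarboxylates mevalonate diphosphate to isopentenyl diphosphate, stood at 4.03, 4.42 and 3.43 FPKM in PBS and at 8.65, 6.21, 6.72 and 7.54 FPKM in OVA libraries. The highest PBS library was below the lowest OVA library, and the fold was 0.80 ± 0.21 (limma adjusted p = 0.00894). Idi1 (chromosome 13, 8885606 to 8892396), the isomerase of that product, was at 32.4, 36.2 and 26.7 FPKM in PBS and at 46.7, 48.1, 42.9 and 44.5 FPKM in OVA. These groups did not overlap either, with a fold of 0.52 ± 0.11 (limma adjusted p = 0.00183). Fdps (chromosome 3, 89093588 to 89101967), which makes farnesyl diphosphate, the branch point to sterols and prenyl groups, was at 57.7, 53.9 and 52.7 FPKM in PBS and at 95.5, 90.6, 90.4 and 96.0 FPKM in OVA. Every OVA library was far above every PBS library, and the fold was 0.76 ± 0.13 (limma adjusted p = 0.000408). Hmgcs1, which makes HMG-CoA at the start of the pathway, gave 84.3, 90.0 and 80.6 FPKM in PBS and 86.5, 88.4, 87.8 and 87.0 FPKM in OVA. The ranges overlapped, at a fold of 0.04 ± 0.12 (limma adjusted p = 0.846). The kinases Mvk and Pmvk between these steps did not pass, at 0.12 ± 0.26 and 0.23 ± 0.18. Leaving out short PBS library 3, the lowest PBS library of Mvd, ended the call of Mvd (0.71, adjusted p = 0.059).

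Of 8 squalene and sterol steps 1 passed. Nsdhl (chromosome X, 72918521 to 72958528), a dehydrogenase that helps remove methyl groups from sterol intermediates, stood at 18.8, 21.8 and 14.7 FPKM in PBS and at 29.7, 29.2, 26.0 and 24.6 FPKM in OVA libraries. All OVA libraries were above all PBS libraries, with a fold of 0.57 ± 0.13 (limma adjusted p = 0.00413), or 0.42 without short PBS library 3 (0.051). Sqle, the squalene monooxygenase and a rate-limiting enzyme of the sterol branch, was at 14.5, 16.8 and 12.7 FPKM in PBS and at 23.3, 18.1, 20.9 and 23.8 FPKM in OVA. The groups did not overlap, yet the fold of 0.54 ± 0.23 did not pass (limma adjusted p = 0.0913). It passed, higher in OVA, under 8 other settings, among them both other scalings (adjusted p = 0.0365 and 0.0277). Msmo1, a methylsterol oxidase, was also higher in every OVA library without passing (0.36 ± 0.15, adjusted p = 0.0837), and the lanosterol synthase Lss was lower in every OVA library without passing (-0.32 ± 0.18, 0.195). Fdft1, Hsd17b7, Sc5d and Dhcr7 overlapped between groups, with folds between 0.07 and 0.35.

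Precursor supply split. Me1 (chromosome 9, 86581363 to 86695914), which turns malate into pyruvate and yields the NADPH used in lipid synthesis, had the highest fold of the 29. Its libraries were at 14.1, 19.1 and 15.2 FPKM in PBS and at 41.3, 36.3, 31.3 and 34.7 FPKM in OVA. No OVA library came near the PBS range, and the fold was 1.13 ± 0.18 (limma adjusted p = 0.000204). Fasn (chromosome 11, 120805958 to 120825166), the fatty acid synthase, went the other way, from 87.3, 126 and 93.8 FPKM in PBS to 63.3, 56.3, 58.1 and 62.1 FPKM in OVA. All OVA libraries were below all PBS libraries (-0.75 ± 0.25, limma adjusted p = 0.0337). Acly, which cleaves citrate to cytosolic acetyl-CoA, was at 31.8, 37.2 and 30.9 FPKM in PBS and at 23.6, 24.9, 23.8 and 25.0 FPKM in OVA. Those groups also stood apart (-0.44 ± 0.14, 0.0247). Acaca, the acetyl-CoA carboxylase, was lower in every OVA library without passing (-0.60 ± 0.22, 0.0537), and Acss2, which makes acetyl-CoA from acetate, stood at -0.0048 ± 0.15.

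Both SREBP genes were lower as fitted, but Srebf2 no longer passed when a trend with transcript length was removed (-0.20 ± 0.09, limma adjusted p = 0.131). Srebf1 (chromosome 11, 60199084 to 60224186), whose products favour fatty acid genes, was at 15.5, 17.7 and 17.9 FPKM in PBS and at 9.28, 10.9, 12.6 and 11.2 FPKM in OVA. No libraries overlapped (-0.62 ± 0.16, limma adjusted p = 0.00823). Srebf2 (chromosome 15, 82147269 to 82205379), whose product favours cholesterol genes, was at 58.5, 77.3 and 71.3 FPKM in PBS and at 47.7, 45.0, 50.2 and 53.8 FPKM in OVA. The gap between the lowest PBS and the highest OVA library was small beside the PBS spread (-0.48 ± 0.15, 0.0267). Insig1, itself an SREBP target that retains SREBPs in the endoplasmic reticulum, overlapped, at 132, 129 and 124 FPKM in PBS and 119, 116, 141 and 113 FPKM in OVA (-0.08 ± 0.10, 0.651). Stard4, a sterol carrier, stood at 0.07 ± 0.11.

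The desaturases differed in sign. Scd2 (chromosome 19, 44293676 to 44306864) was at 192, 223 and 214 FPKM in PBS and at 147, 153, 148 and 130 FPKM in OVA, all OVA libraries below all PBS libraries (-0.53 ± 0.15, limma adjusted p = 0.0157). Scd1, which introduces the same double bond into saturated fatty acids, was at 148, 244 and 110 FPKM in PBS and at 308, 317, 228 and 208 FPKM in OVA. Short PBS library 2 lay inside the OVA range, and the fold of 0.72 ± 0.35 did not pass (0.148). Elovl6, which elongates palmitate, overlapped too, at 2, 3.26 and 1.71 FPKM in PBS and 3.59, 3.13, 2.58 and 3.43 FPKM in OVA (0.41 ± 0.30, 0.348). The polyunsaturated fatty acid desaturases Fads1 and Fads2 gave -0.21 ± 0.14 and 0.42 ± 0.20, and Elovl1, an elongase of very long chains, 0.04 ± 0.13, none passing.

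**Figure D2:**
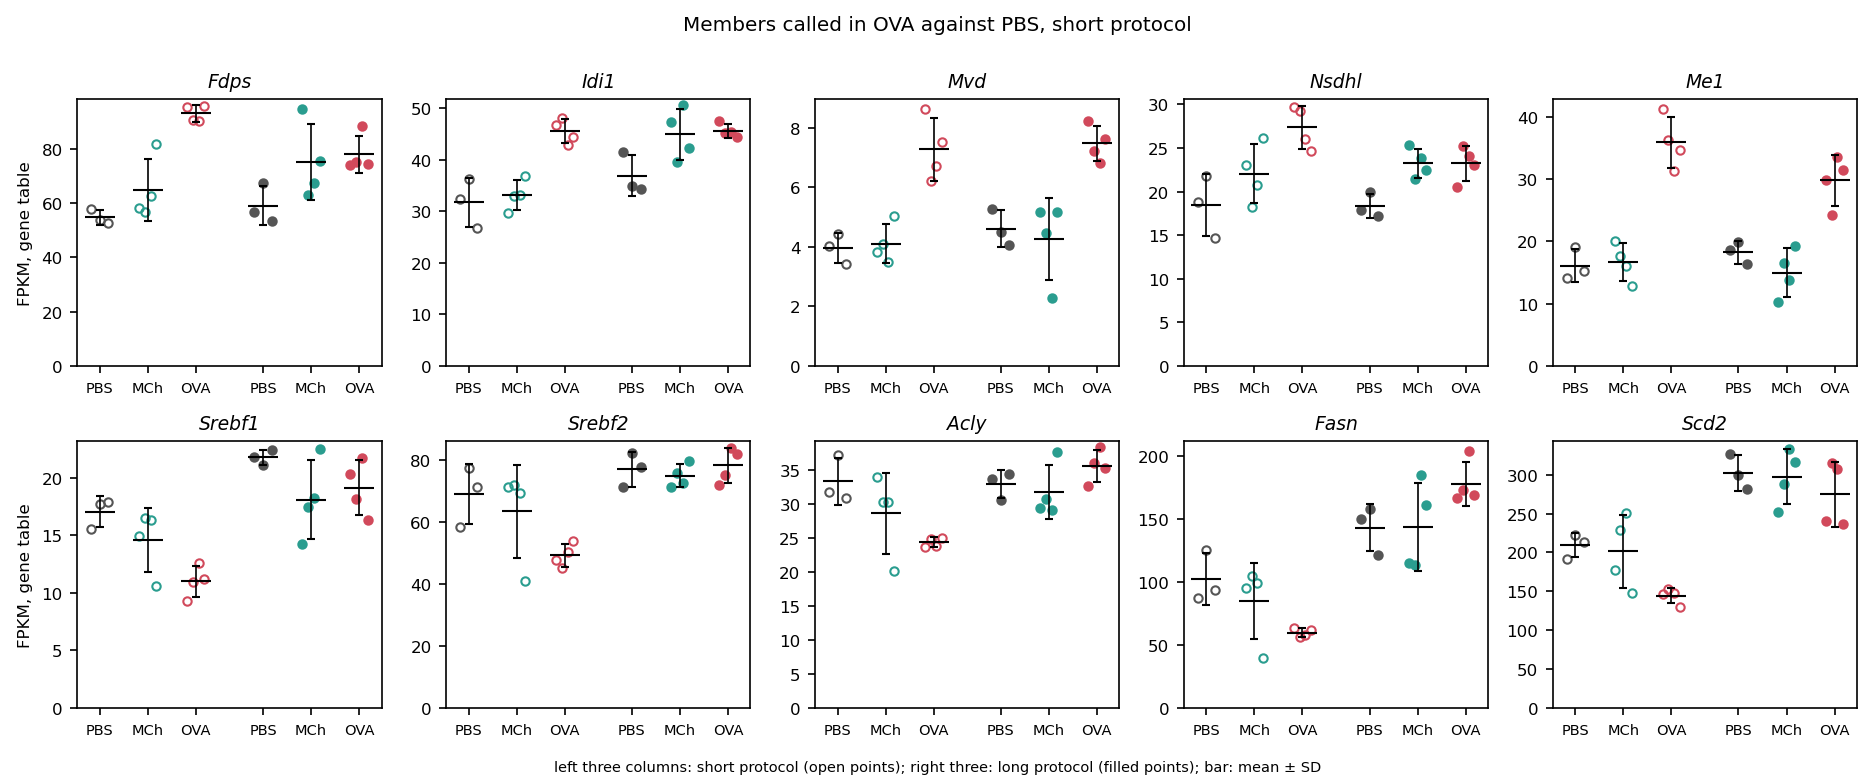
Gene-table FPKM of the 10 genes that passed in OVA vs PBS short, 1 point per library, with mean ± SD as bars. In short-protocol columns (open points) OVA lies above PBS in the upper row and below PBS in the lower row, and in long-protocol columns (filled points) the lower row shows no such separation except that Fasn is higher in OVA.

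Whether libraries separated was also counted without a model. All OVA libraries were above all PBS libraries for 8 of the 29 genes and below them for 7, beside 23.2% and 29.2% of all tested genes, and together 52.4% of all genes separated in this comparison.

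The calls of lower genes moved with transcript length and with single libraries. All 5 lower genes had transcripts longer than 3288 bases, as did 14 of the 29, of which 0 passed as higher and 5 as lower (median fold -0.26). The other 15 gave 5 higher and 0 lower (median 0.36). Across the 29 genes, Spearman's rho of fold with length was -0.5, and across 15475 tested genes it was -0.44, a description over genes that are not independent. In each short OVA library the deviation from the mean of all libraries fell with length (rho from -0.473 to -0.392), while short PBS libraries gave -0.029 to 0.27. With each library's smooth trend with length removed, Fasn stood at -0.23 ± 0.16 (limma adjusted p = 0.34), Scd2 at -0.22 ± 0.12 (0.216), Acly at -0.23 ± 0.09 (0.0862), Srebf2 at -0.20 ± 0.09 (0.131) and Acaca at -0.11 ± 0.15 (0.669), and only Srebf1 of the 29 still passed as lower (-0.41 ± 0.11, 0.0116; background 9.36% of all genes). The 5 higher genes all passed again, Me1 at 1.23 ± 0.15 and Fdps at 0.51 ± 0.12, joined by Sqle (0.57 ± 0.20, 0.0462), Scd1 (0.98 ± 0.31, 0.0297), Elovl6 (0.76 ± 0.24, 0.027) and Stard4 (0.36 ± 0.11, 0.0204), while 12.1% of all genes were higher. Removing the trend takes away any real change that follows length as well as any technical one, and which it was here was not tested.

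**Figure D3:**
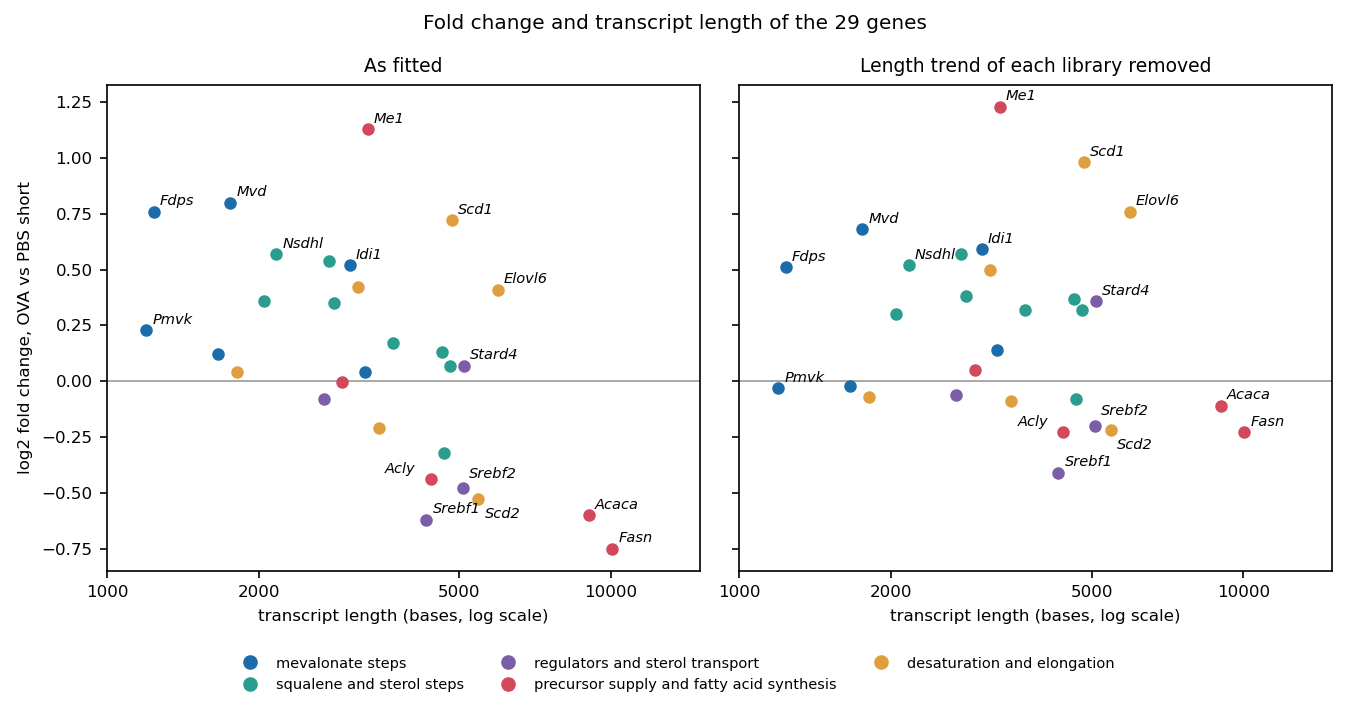
Log2 fold change in OVA vs PBS short (y axis) against transcript length in bases (log x axis) for the 29 genes, coloured by role, as fitted (left) and with each library's length trend removed (right). Fasn and Acaca, the longest, move from -0.75 and -0.60 to -0.23 and -0.11, while Me1 is highest in both panels and Srebf1, at -0.41, is lowest in the right one.

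Without short PBS library 2 the lower calls ended for Srebf2 (-0.39, limma adjusted p = 0.122), Acly (-0.36, 0.118), Fasn (-0.59, 0.153) and Scd2 (-0.49, 0.062), and without short PBS library 3 for Srebf2 (-0.45, 0.101), Fasn (-0.81, 0.074) and Scd2 (-0.52, 0.063). Fasn also lost its call without any 1 of the OVA libraries 1 to 4 (adjusted p = 0.0599, 0.0717, 0.0634 and 0.0537). Srebf2 lost it without OVA library 1 or 2 (0.0642 and 0.0702), and Acly without OVA library 1 or 3 (0.0613 and 0.0503). Srebf1, Me1, Fdps and Idi1 kept their calls without each short PBS and short OVA library in turn. With only 3 PBS libraries, leaving 1 out also weakens the test. Without short PBS library 3 these calls ended although the folds changed little from -0.48 (Srebf2), -0.75 (Fasn) and -0.53 (Scd2). The number of all genes called in these fits is not given here.

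Genes of the same pathways outside the 29 were also compared in OVA vs PBS short. Of 8 other tested sterol synthesis genes, 3 passed as higher and 1 as lower, beside 12.4% and 11.7% of all tested genes. Cyp51, the lanosterol demethylase, rose from 11.7, 13.5 and 10.1 FPKM in PBS to 20.5, 19.8, 21.6 and 22 FPKM in OVA (0.81 ± 0.16, limma adjusted p = 0.000954), and Acat2 and Ebp rose by 0.70 ± 0.16 and 0.64 ± 0.16. Every OVA library was above every PBS library for Cyp51. Of 7 tested genes of SREBP processing and sterol uptake, 3 were lower and 1 higher: the SREBP escort Scap at -0.57 ± 0.13 (0.00334), the protease Mbtps1 at -0.39 ± 0.09 and the lysosomal cholesterol exporter Npc1 at -0.48 ± 0.16, against its partner Npc2 at 0.76 ± 0.18 (0.00517). Insig2, a relative of Insig1, stood at -0.24 ± 0.23 (0.491). With the length trend removed, the same 3 sterol synthesis genes passed as higher, and Scap was the 1 gene of SREBP processing still lower.

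Cell markers were also counted in OVA vs PBS short, where 12.4% of all tested genes passed as higher and 11.7% as lower. All 10 cell cycle markers passed as higher, with summed FPKM of 15.5 to 42.8 in PBS and 96.2 to 120 in OVA. So did 6 of 7 recruited macrophage markers, with sums of 86.2 to 119 in PBS and 443 to 635 in OVA, and 4 of 5 eosinophil markers (6.28 to 7.64 and 11.3 to 23.6). Alveolar type 2 markers summed to 14100 to 16000 in PBS and 19400 to 21000 in OVA, with 3 of 10 higher and 4 lower. Alveolar macrophage markers summed to 448 to 462 and 640 to 808, with 3 of 7 higher and 1 lower. With the length trend removed, 3 of the 10 type 2 markers were higher and 5 lower. Short MCh library 4, whose values fell most with length (rho -0.643), had a type 2 sum of 24400 (group median 15200). What part length has in these sums was not tested. Among those type 2 markers Sftpd rose by 1.27 ± 0.15 and Abca3, the lamellar body lipid transporter, fell by 0.78. Of 7 alveolar type 1 markers 4 were lower, with sums of 1900 to 2450 in PBS and 1550 to 1850 in OVA. Adipocyte markers overlapped (36.5 to 209 and 47.4 to 180, 2 of 7 lower), as did cardiac muscle (124 to 541 and 59.4 to 271, 0 of 7 called) and brown adipocyte markers (1.19 to 4.39 and 0.974 to 4.13, 0 of 3 tested called), and Adipoq, the defining adipocyte gene, was at 1.26 ± 1.51 and 0.802 ± 1.08 FPKM. What part such cells have in the values of the 29 genes was not tested.

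After the long protocol no gene of the 29 passed in OVA vs PBS (limma with Benjamini-Hochberg adjustment), beside 1.18% of all genes that did. An unadjusted p under 0.05 was seen for 9 of the 29, all higher in OVA. The share of all genes with such a p is not given here, so the 9 cannot be read against a background. Of the 29 folds 23 were above 0, with a median of 0.17 against -0.02 for all genes. For 12 genes every OVA library lay above every PBS library, and for 0 below, beside 9.95% and 13.2% of all tested genes. These 12 were Pmvk, Mvd, Idi1, Fdps, Msmo1, Nsdhl, Dhcr7, Me1, Fasn, Scd1, Elovl6 and Fads2. With limma array weights 11 genes passed as higher, and with the other settings run 0 to 8 did. The share of all genes called with array weights is not given here, so that count cannot be read against a background.

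Scd1 had the highest long OVA fold. Its libraries were at 193, 261 and 200 FPKM in PBS and at 513, 513, 697 and 372 FPKM in OVA. The groups stood well apart, with a fold of 1.24 ± 0.35 (limma adjusted p = 0.115, and 0.0395 with the length trend removed, where 1.4% of all genes were higher). Dhcr7 (chromosome 7, 143823167 to 143848410), the reductase that completes cholesterol, was at 4.14, 5.56 and 4.28 FPKM in PBS and at 12.5, 8.74, 7.83 and 8.39 FPKM in OVA. All 4 OVA libraries were above the PBS range (0.92 ± 0.26, 0.119). Me1 was at 18.6, 19.9 and 16.3 FPKM in PBS and at 29.9, 24.2, 33.6 and 31.5 FPKM in OVA, again without overlap (0.69 ± 0.18, 0.0876). It passed under 6 other settings, with an adjusted p of 0.0161 after removal of the length trend.

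Mvd was at 5.29, 4.51 and 4.05 FPKM in long PBS and at 8.24, 7.21, 6.83 and 7.63 FPKM in long OVA, at a fold of 0.65 ± 0.21 (limma adjusted p = 0.22). Elovl6 was at 1.34, 1.89 and 1.61 FPKM and at 2.76, 2.3, 3.36 and 3.31 FPKM, at 0.70 ± 0.30 (0.533). Both genes separated without passing. Without the 3 libraries that list most genes at 0, all of them MCh, Mvd (0.0113), Dhcr7 (0.00495) and Me1 (0.00943) passed in this comparison, because all 6 groups share the estimate of spread. The share of all genes called in that fit is not given here, so these calls do not show a change particular to these genes. Fasn was at 150, 158 and 122 FPKM in PBS and at 167, 173, 204 and 169 FPKM in OVA, higher in each OVA library, the other side from the short protocol (0.32 ± 0.25, limma adjusted p = 1).

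Genes lower after short OVA did not pass after long OVA. Srebf1 was at 21.8, 21.1 and 22.4 FPKM in long PBS and at 20.3, 18.1, 21.7 and 16.3 FPKM in long OVA (-0.19 ± 0.16, limma adjusted p = 1). Srebf2 was at 71.1, 82.2 and 77.6 FPKM and at 71.9, 75.1, 83.9 and 82.0 FPKM (0.02 ± 0.15, 1), and Scd2 at 326, 299 and 281 FPKM and at 241, 315, 307 and 237 FPKM (-0.14 ± 0.15, 1). In each case the ranges overlapped. Hmgcs1 (0.09 ± 0.12), Sqle (0.19 ± 0.23) and Insig1 (0.06 ± 0.10) overlapped as well. Among the companion genes Cyp51 stood at 16.0, 16.8 and 13.5 FPKM in PBS and 22.9, 28.3, 24.1 and 20.0 FPKM in OVA, separate but not passing (0.61 ± 0.16, 0.0726). Recruited macrophage markers summed to 99.1 to 118 in long PBS and 184 to 249 in long OVA, with 4 of 7 called higher, while adipocyte markers overlapped at 22.8 to 71.2 and 24 to 69.9, with Cidec, a lipid droplet protein, lower (-1.65 ± 0.28, 0.00312). Adipoq stood at 0.705 ± 0.52 and 0.532 ± 0.573 FPKM. Their part in the values of Scd1 was not tested.

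**Figure D4:**
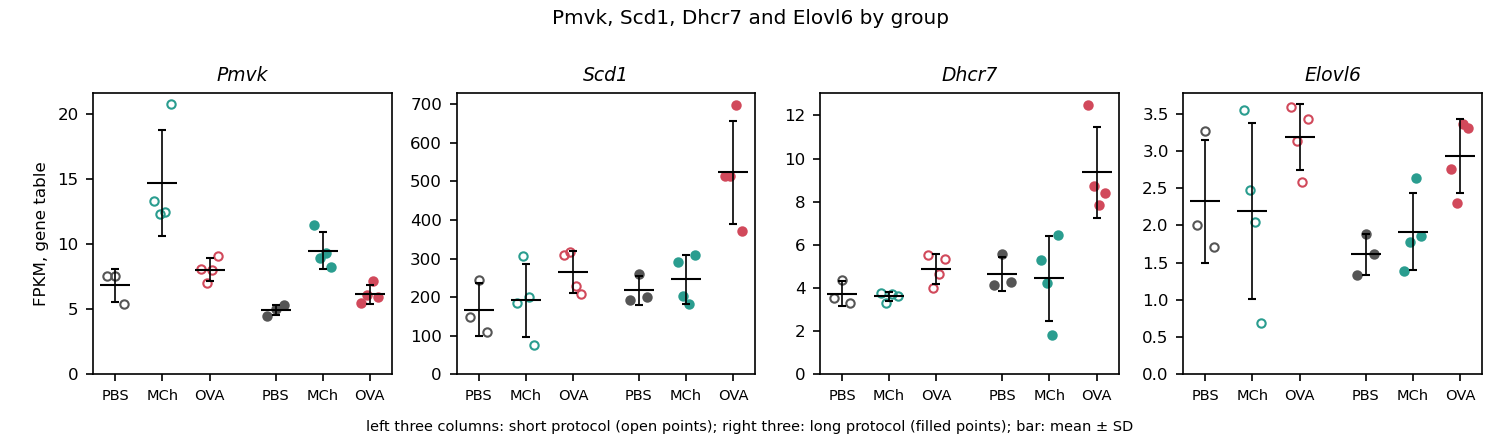
Gene-table FPKM of Pmvk, Scd1, Dhcr7 and Elovl6, 1 point per library (open, short protocol; filled, long protocol), with mean ± SD as bars. Pmvk is highest in MCh in both protocols, and Scd1 and Dhcr7 are highest in long OVA, where all points lie above the long PBS points.

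The difference between the OVA effects of the protocols was tested as an interaction. No gene of the 29 passed in limma (1.88% of all genes did). An unadjusted p under 0.05, for which no share of all genes is given here, was seen for 3. These were Fasn, whose OVA effect was higher in the long protocol by 1.07 ± 0.35 (limma adjusted p = 0.141), Acly by 0.55 ± 0.19 (0.178) and Srebf2 by 0.50 ± 0.21 (0.268). All 3 have transcripts over 3288 bases, and rho of this difference with length was 0.6 over the 29 and 0.46 over all genes. With array weights 8 of the 29 passed, and with the compared groups alone 8. The shares of all genes called in these fits are not given here, so the counts cannot be read against a background.

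PBS lungs themselves stood slightly higher in the long protocol for most of these genes, and none passed in limma (0.166% of all genes did). An unadjusted p under 0.05, for which no share of all genes is given here, was seen for 6 of the 29. The sign was positive for 25 of 29, with a median of 0.21 against 0.05 for all genes. These folds also rose with transcript length (Spearman's rho 0.39 over the 29 genes and 0.28 over all genes). With the length trend removed, 23 were positive, at a median of 0.15 against -0.0029 for all genes, and 0 passed. For 10 genes all long PBS libraries were above all short ones and for 1, Pmvk, below, beside 18.9% and 9.16% of all genes. Scd2 had the smallest p, with 192, 223 and 214 FPKM in short and 326, 299 and 281 FPKM in long PBS (0.53 ± 0.16, limma adjusted p = 0.37). Protocol, age at collection and any processing batch cannot be told apart here.

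After methacholine Pmvk had the largest fold of the 29 genes against PBS in both protocols. None of the 29 passed in limma in the short protocol (0.00638% of all genes did) or in the long protocol (0.0638%). Of the 29, 1 and 4 had an unadjusted p under 0.05. The shares of all genes with such a p are not given here. Pmvk (chromosome 3, 89454541 to 89469014) encodes phosphomevalonate kinase. In the short protocol it was at 7.56, 7.56 and 5.39 FPKM in PBS and at 13.3, 12.3, 12.5 and 20.8 FPKM in MCh. In the long protocol it was at 4.51, 4.99 and 5.32 FPKM in PBS and at 11.5, 8.94, 9.34 and 8.22 FPKM in MCh. Every MCh library was above every PBS library in both protocols, at folds of 1.04 ± 0.18 (limma adjusted p = 0.0878) and 0.87 ± 0.18 (0.0883). Such separation was seen for 2 of the 29 genes in each protocol, the other being Insig1 after short and Nsdhl after long MCh, and for 3.24% and 2.6% of all genes. The unadjusted p of Pmvk was 1.12e-05 and 9.01e-05.

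The Pmvk call depended on the setting. It passed in both protocols with the length trend removed (0.92 and 0.99, limma adjusted p = 0.0406 and 0.00569, where 0.0194% and 0.181% of all genes were higher), with array weights (0.00152 and 0.00259) and with sums of its transcripts (0.0255 and 0.0377), and it passed in the long protocol without long MCh library d (0.93, 0.0255). Without short MCh library 4, the library with the most Pmvk, the short fold was 0.86 (0.102), and without short PBS library 3 it was 0.89 (1). Fitted on the groups compared alone, Pmvk did not pass (0.873 and 0.677). Short MCh library 4 stood apart in length trend (rho -0.643) and held 40.1 FPKM of Fasn, 17 of Acaca and 0.693 of Elovl6, below all others of its group. Pmvk is among the shortest transcripts here (1194 bases).

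OVA and MCh were compared directly within each protocol. In the short protocol 4 of the 29 genes passed as higher in OVA (9.37% of all genes did) and 2 as lower (5.82%). Mvd was higher by 0.75 ± 0.19 (limma adjusted p = 0.0107), Idi1 by 0.45 ± 0.10 (0.0039), Fdps by 0.54 ± 0.12 (0.00504) and Me1 by 1.09 ± 0.17 (0.000143), and for these 4 and Dhcr7 all OVA libraries lay above all MCh libraries (11.8% of all genes did). Idi1 in MCh was at 29.7, 33.0, 33.2 and 36.9 FPKM and Me1 at 20.1, 17.7, 16.1 and 12.9 FPKM. Pmvk was lower in OVA (-0.80 ± 0.16, 0.00174), with all OVA libraries below MCh as for 6.3% of all genes, and so was Scd2 (-0.45 ± 0.14, 0.0375), whose groups overlapped. Scd2 lost its call in the absence of MCh library 2 (-0.38, 0.132) or 3 (-0.33, 0.156), or any OVA library (0.0786, 0.0567, 0.0626 and 0.106 for libraries 1 to 4). It also lost the call with the length trend removed (-0.31, 0.0644) and when the compared groups alone were fitted (-0.45, 0.132). Without short MCh library 4 the calls rose to 13, 5 higher and 8 lower, as all-gene calls rose from 2381 to 4835, the lower ones being Pmvk, Lss, Srebf1, Srebf2, Acly, Acaca, Fasn and Scd2.

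In the long protocol 3 genes passed as higher in OVA than in MCh (4.75% of all genes did) and 1 as lower (1.31%). Me1 was at 10.2, 16.6, 13.8 and 19.3 FPKM in MCh, all below the OVA libraries, and higher in OVA by 1 ± 0.17 (limma adjusted p = 0.00115). Dhcr7 was at 5.32, 4.24, 1.83 and 6.45 FPKM in MCh, also below every OVA library (1.08 ± 0.24, 0.0115), and Mvd at 5.17, 4.48, 2.27 and 5.18 FPKM (0.80 ± 0.19, 0.018). The lowest value of both was in long MCh library c, which lists 33.8% of genes at 0. Pmvk was lower in OVA (-0.58 ± 0.16, 0.0398). All OVA libraries lay above all MCh libraries for 5 of the 29 genes, Mvd, Msmo1, Dhcr7, Me1 and Scd1 (9.6% of all genes), and below for 1, Pmvk (4.07%). Without long OVA library a, Dhcr7 (0.94, 0.06) and Mvd (0.75, 0.0714) did not pass, and Mvd did not without library d (0.79, 0.0525). Pmvk did not pass without long MCh library a or c (0.1 and 0.0712) or long OVA library a, b or d (0.132, 0.0727 and 0.0998). OVA vs PBS and OVA vs MCh share the OVA libraries and are not independent.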

How the data were processed

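Lung RNA was sequenced in 22 libraries of 6 groups. The submitters' processing notes name mm10 as genome and list STAR, Trim Galore and DESeq2, without versions or roles. The authors deposited FPKM values per gene (20938 genes) and per transcript (36844 transcripts), and counts were not used here. In low values the steps that 1 fragment makes imply depths of 15.1 to 25.5 M fragments per library. The labels call the libraries of a group biological replicates but name no animals, so p-values measure the spread between libraries. The gene table holds 26 names turned into dates, none of the 29 genes.

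Values were log2-transformed after adding 0.5, and 15682 genes with at least 0.1 FPKM in 3 or more libraries were tested, all 29 genes among them. limma 3.58.1 (R 4.3.3) was run as 1 model over all 6 groups, with a mean trend and two-sided tests, and 8 contrasts were taken, each adjusted by the Benjamini-Hochberg method. The procedure was tested on simulated data. Transcript lengths came from GENCODE M21, matched for 20499 genes, and a smooth trend of each library's deviation with length was removed in 1 alternative. Other alternatives changed the pseudocount, filter, scaling, library weights, libraries and gene summary. Promoter windows came from RefSeq (GRCm38.p6).

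The members and all gene lists were chosen with earlier results of these data known. All 29 genes may be named. Values in every library were to be given for called genes with the smallest p and for Hmgcs1, Sqle, Insig1, Srebf1, Srebf2, Fasn, Scd1, Scd2 and Elovl6. Those of Acly, Nsdhl, Pmvk, Dhcr7 and, after long OVA, Me1 and Mvd were added after their values were seen. From each other list, genes with the smallest p and a few fixed genes are named. A few genes of these other lists are not reported here.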

Additional observations from a re-analysis of the deposited data

Results flagged for a closer look

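In each group of 4 libraries, a library was singled out where its gap to the nearest other library took up more of the group's range than Dixon's 95% critical value allows. This held for 10 of 116 groups, and chance gives about 1 in 20. Of the 10, 6 lay in short MCh library 4. There Fasn at 40.1 FPKM (others 95.2 to 105), Acaca at 17 (35.9 to 39.8), Srebf2 at 40.9 (69.4 to 71.8) and Hsd17b7 at 4.7 (6.82 to 7.13) were low, while Elovl1 at 74.2 (47 to 50.2) and Pmvk at 20.8 (12.3 to 13.3) were high. The others were Fdps at 88.4 FPKM in long OVA library c (74.1 to 75.3), Fdft1 at 14.4 in long MCh library c (7.62 to 8.43), Sc5d at 3.99 in short OVA library 1 (4.58 to 4.67) and Acaca at 25.5 in short OVA library 4 (22.9 to 23.3).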

How the results depend on the processing

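The count of the 29 genes called moved most with limma's array weights. These were low for short MCh libraries 1 and 4 (0.212 and 0.083) and long MCh libraries a and c (0.066 and 0.088). Short MCh library 2 had the highest weight (5.437). For most settings below, the share of all genes called is not given. A changed count therefore does not show a change particular to the 29 genes. With array weights 18 genes passed in OVA vs PBS short (10 as reported), 11 in OVA vs PBS long (0), and 2 and 1 in MCh vs PBS short and long (0 and 0). In OVA vs MCh short and long 20 and 9 passed (6 and 4), in PBS long vs short 11 (0) and in the interaction 8 (0). Fitted on the compared groups alone, the counts were 16 in OVA vs PBS short, 8 in OVA vs PBS long, 1 in OVA vs MCh long, 2 in PBS long vs short and 8 in the interaction. OVA vs PBS long gave 1 with median-of-ratios scaling, 2 with quantile normalization, 3 without the 3 sparse libraries and 2 with the length trend removed. MCh vs PBS short gave 1 without a filter, without the sparse libraries, with the length trend removed and with sums of transcripts, and MCh vs PBS long 1 with the last 2. Leaving out 1 library gave 5 (without short PBS library 3) to 10 in OVA vs PBS short, 5 to 13 in OVA vs MCh short, 1 (without long OVA library a) to 6 (without long MCh library d) in OVA vs MCh long, 2 without long OVA library d, and 0 to 1 in MCh vs PBS long. For the single genes followed through the settings, in the comparisons that describe them, 681 fold changes kept direction and side of the threshold, 43 came to pass, 46 ceased to pass and 4 changed sign, these near 0 in OVA vs PBS long: Hmgcs1 without long PBS library 3 (-0.01), and Srebf2 without long PBS library 1 (-0.03) or long OVA library c (-0.01) or d (-0.00011). Leaving out 1 library took Hmgcs1 there from -0.01 to 0.17 and Srebf2 from -0.03 to 0.07. Scaling moved the median of all genes by 0.1 (median-of-ratios) and 0.16 (quantile) in MCh vs PBS long, where 13 genes were positive as reported and 21 and 19 then, and by -0.18 (quantile) in OVA vs MCh long, where 23 became 18, or 14 with median-of-ratios scaling. The cause was not tested.

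Replicate numbers did not pair the libraries: deviations of same-numbered libraries correlated over 0.1 in 3 of 19 pairs (-0.27 to 0.356), and 4 correlated best with their own number. With a replicate block over the numbered libraries, 10 genes passed in OVA vs PBS short (8 higher, 2 lower), 6 in OVA vs MCh short and 0 in MCh vs PBS short and PBS long vs short. The same libraries without a block, a fit chosen after seeing the data, gave 11, 8, 0 and 0. Columns of long MCh and long OVA carry no numbers, so no block was fitted there. Low values limit precision: the lowest implied fragment numbers were 82 for Elovl6 (short MCh library 4), and 99 for Dhcr7 and 102 for Mvd (both long MCh library c).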

Other observations

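Genes of sterol export and of fatty acid use were also counted in OVA vs PBS short. In that comparison 12.4% of all tested genes passed as higher and 11.7% as lower. Of 10 genes of the liver X receptor (LXR) pathway and sterol export, 2 rose and 3 fell in limma. Ch25h, which makes 25-hydroxycholesterol, a sterol that restrains SREBP processing, rose from 0.996, 2.62 and 1.28 FPKM in PBS to 58.2, 70.3, 39.4 and 71.3 FPKM in OVA, with no overlap (4.86 ± 0.31, adjusted p = 1.72e-09), and it was the 1 gene of these lists that passed after long OVA (2.38 ± 0.31, 0.000234). Lpcat3, a phospholipid acyltransferase, rose by 0.47 ± 0.12, while the cholesterol exporters Abca1 (-0.98 ± 0.18, 0.000615) and Abcg1 (-0.51 ± 0.17, 0.0309) and the sterol hydroxylase Cyp27a1 (-0.57 ± 0.18) fell. With the length trend removed Abcg1 no longer passed.

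Of 22 other tested genes of fatty acid and triglyceride synthesis 2 rose and 4 fell. Either way 24.2% of all tested genes passed, so this count and that of the oxidation genes below say little about these lists. Hsd17b12, a step of chain elongation, rose by 0.54 ± 0.12 (limma adjusted p = 0.00277) and Acsl4, an acyl-CoA synthetase, by 0.65 ± 0.20. Acacb, the carboxylase whose malonyl-CoA restrains fatty acid oxidation, fell (-1.08 ± 0.25, 0.00399), as did Elovl5 (-0.42 ± 0.11) and Mlxipl, a carbohydrate-responsive factor (-0.76 ± 0.19). Of 12 fatty acid oxidation genes 0 rose and 3 fell, Pdk4 (-2.03 ± 0.39, 0.000863), Cpt1a, the gate of mitochondrial fatty acid entry (-0.70 ± 0.14, 0.00124), and Ppara (-1.21 ± 0.39, 0.028). With the length trend removed the same 3 fell, and Hadha and Ppargc1a rose.

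Within groups the 29 genes did not vary as 1 block. Over 406 pairs, deviations from group means in 22 libraries, which share depth and scaling, had a median Pearson r of 0.097 (-0.748 to 0.886). The highest pair was Lss with Acaca (0.886, and 0.779 without short MCh library 4), with transcripts of 4667 and 9026 bases. The lowest was Pmvk with Stard4 (-0.748), with 1194 and 5097 bases. What part each library's trend with length has in such pairs was not tested. Mvd followed Dhcr7 (0.825, and 0.854) and Msmo1 (0.827, and 0.816), while Acaca with Fasn went from 0.754 to 0.5. Mvd, Dhcr7 and Msmo1 were lowest of their group in long MCh library c (2.27, 1.83 and 9.34 FPKM), which lists 33.8% of genes at 0. The r of these pairs without that library is not given here.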
